A study of Homo sapiens with 12 samples.

Results

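The dexamethasone effect shared by 2 prostate cancer cell lines, LNCaPabl-Abi and LNCaPabl-Enza, was measured as the mean of 2 differences, dexamethasone minus solvent in each line. The main calculation used 11 of the 12 arrays and was repeated with all 12, because 1 solvent array of LNCaPabl-Enza stood apart. Of 17687 genes tested with the 11 arrays, 9706 (54.9%) had differences of the same sign in both lines. The mean differed from 0 for 27 genes by limma at an adjusted p under 0.05, and all 27 had the same sign in both lines. Selection on the mean favours genes of 1 sign, so that count describes them. When each line had to pass on its own, 0 genes were called.

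Both lines carry the name of LNCaP, a widely used human prostate cancer line, and are labelled epithelial. What Abi and Enza abbreviate is not given in the labels. Abi_Ctrl and Enza_Ctrl received the solvent DMSO for 24 h, and Abi_Dex and Enza_Dex received 100 nM dexamethasone for 24 h. Each group held 3 arrays, hybridised with target made from 150 ng of total RNA. All arrays of a line come from that 1 line, so they do not sample other tumours. The labels do not say whether replicates were separate cultures, and p-values then reflect only array-to-array spread, which may be technical.

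Dexamethasone is a synthetic glucocorticoid that binds the glucocorticoid receptor, encoded by NR3C1. The bound receptor enters the nucleus and activates or represses genes through short DNA elements, and the androgen receptor recognises closely related elements. In prostate cancer cells some genes can therefore respond to either hormone.

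Values are deposited log2 values, and every fold change is on that deposited scale. Enza_Ctrl replicate 2 had a median Pearson correlation of 0.873 with the other arrays, whose own medians lay between 0.987 and 0.991. Its 4 poly-A spike-ins averaged 3.46 against 7.07 to 8.10 elsewhere, its 4 hybridization controls 13.94 against 10.49 to 11.43, and its 23 background probes 5.50 against 4.50 to 4.60. Unless stated, Enza_Ctrl therefore means replicates 1 and 3, and the residual SD of the median gene was 0.26 on the log2 scale without that array and 0.43 with it. The 13 measured luminal epithelial markers averaged 11.46 to 12.17 per array on the log2 scale. The lists of basal, neuroendocrine, mesenchymal, fibroblast, immune and endothelial markers averaged between 4.04 and 5.66. In bulk RNA of this kind, fewer cells of a type and less RNA per cell cannot be told apart.

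Dexamethasone raised 26 genes in the mean of both lines and lowered 1, TINAG, in limma at a Benjamini-Hochberg adjusted p under 0.05. The 26 raised genes were 0.147% of all genes tested and the 1 lowered gene 0.00565%. Their mean differences ran from 0.85 to 5.91 on the log2 scale with a median of 1.33. The 26 hold a hormone-responsive kinase and a sodium channel subunit, prostate secretory proteases, receptors and signalling brakes, and enzymes of lipid handling. At an unadjusted p under 0.05 there were 989 genes (5.59%), of which 526 were higher (2.97% of all genes) and 463 lower (2.62%). Only 8 of the 26, namely SGK1, TMPRSS2, SCNN1G, KLK4, MAP1B, HTR3A, PGC and SPSB1, stayed called under every omission of a single array. The count of raised genes was 12 without Abi_Ctrl replicate 1, 15 without Abi_Dex replicate 1, 13 without Abi_Dex replicate 2, 12 without Enza_Ctrl replicate 1, 8 without Enza_Ctrl replicate 3, 13 without Enza_Dex replicate 2 and 15 without Enza_Dex replicate 3.

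**Figure D1:**
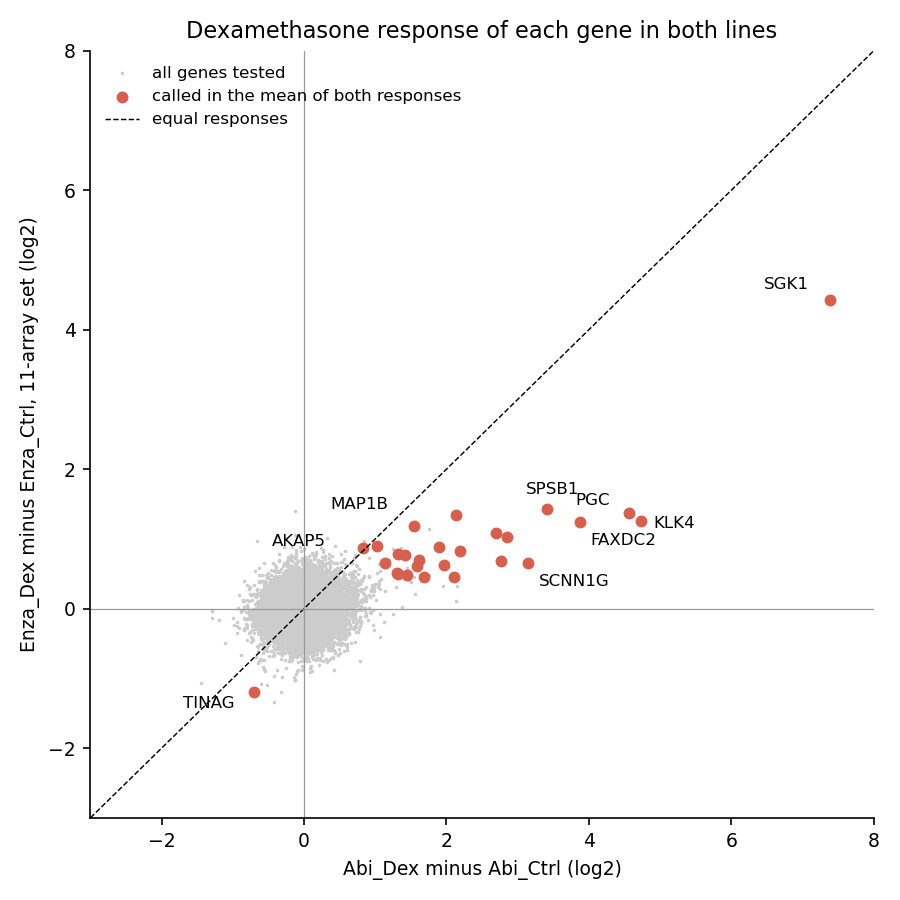
Each point is 1 gene, with its difference in LNCaPabl-Abi on the x axis and in LNCaPabl-Enza on the y axis, both in log2 units over the 11 arrays; red points are the 27 genes called in the mean and the dashed line marks equal differences. SGK1 lies far from all other genes at 7.39 and 4.43, most of the other raised genes lie well below the dashed line, and AKAP5 lies on it.

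A mean can pass its test through 1 line, so both lines were also required to pass. With the larger of the 2 lines' limma p-values, 0 genes were called after Benjamini-Hochberg adjustment and 60 had an unadjusted p under 0.05 in both (0.339% of genes). SGK1 had the smallest such p, 1.52e-05, with an adjusted p of 0.269. The LNCaPabl-Abi difference alone called 25 genes (0.141%), and the LNCaPabl-Enza difference alone called 0, with 244 higher at an unadjusted p under 0.05 (1.38%). Of the 26 raised genes, 22 were also called in LNCaPabl-Abi alone and 20 had an unadjusted p under 0.05 in LNCaPabl-Enza. ETS2, IGF1R, TUBA3D, FAXDC2, OTULINL and PGLYRP2 did not, with unadjusted limma p-values there between 0.0704 and 0.134. A rise in LNCaPabl-Enza is therefore not shown for them on its own. TMPRSS11E, AKAP5, LCP1, RGS2 and TINAG were called in the mean but in neither line alone. In the other direction STK39, BBS12 and CST1 were called in LNCaPabl-Abi alone and not in the mean.

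Groups did not overlap for all 26 raised genes in LNCaPabl-Abi, against 6.26% of all genes that were higher there without overlap. In LNCaPabl-Enza 20 of the 26 did not overlap, against 7.93%. The same 20 were without overlap in both lines, against 0.69% of all genes. These genes were selected on the same differences, so the counts describe them. Of the genes nearest the threshold, PGLYRP2 was just inside at an adjusted p of 0.0369, and STK39 at 0.0515 and KLK2 at 0.0676 were just outside.

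SGK1, a serine/threonine kinase that promotes epithelial sodium uptake and is a textbook glucocorticoid target, had the largest difference. It read 6.52, 6.20 and 5.82 in Abi_Ctrl and 13.59, 13.29 and 13.83 in Abi_Dex. In LNCaPabl-Enza it read 6.13 and 6.89 in Enza_Ctrl and 9.66, 9.99 and 13.20 in Enza_Dex. Every dexamethasone array was above every DMSO array in both lines, and Enza_Dex replicate 3 lay close to the Abi_Dex arrays while replicates 1 and 2 lay between the groups. The mean difference was 5.91 ± 0.47 (SE), a 60.2-fold rise on the deposited scale, with a limma adjusted p of 4.97e-05. LNCaPabl-Abi gave 7.39 ± 0.63 and LNCaPabl-Enza 4.43 ± 0.70.

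SCNN1G encodes the gamma chain of the epithelial sodium channel, whose surface level SGK1 controls. Its values were 4.16, 3.96 and 4.60 in Abi_Ctrl and 7.10, 7.10 and 7.99 in Abi_Dex. They were 5.09 and 5.13 in Enza_Ctrl and 5.69, 5.52 and 6.08 in Enza_Dex. The groups separated in both lines, but over a much narrower range in LNCaPabl-Enza. SCNN1G rose by 1.90 ± 0.19 in the mean (limma adjusted p of 3.27e-04), from 3.15 ± 0.25 in LNCaPabl-Abi and 0.65 ± 0.28 in LNCaPabl-Enza. The beta subunit gene SCNN1B had a mean difference of 0.85 and the ubiquitin ligase gene NEDD4L, whose product removes the channel from the membrane, had 0.46, with limma adjusted p-values of 0.253 and 0.661. Across the 15 measured genes of the epithelial sodium transport list, 2 were called higher, SGK1 and SCNN1G, and 0 lower. Of all genes 0.147% were called higher and 0.00565% lower. In that list 11 members were positive in both lines and 1 was negative in both, with a median of 0.16, against 28.1%, 26.8% and a median of 0.00 for all genes. The gene lists were chosen with earlier results of these data known, so counts within them describe their members. With all 12 arrays the median of the list was 0.42, and its LNCaPabl-Enza median went from 0.13 to 0.47.

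KLK4, a kallikrein serine protease made by prostate epithelium and induced by androgen, had a higher baseline in LNCaPabl-Enza. Abi_Ctrl read 5.87, 5.14 and 6.44 and Abi_Dex 9.97, 10.58 and 11.09. Enza_Ctrl read 9.04 and 7.62 and Enza_Dex 9.01, 9.52 and 10.22. The LNCaPabl-Enza groups overlapped, because Enza_Ctrl replicate 1 exceeded Enza_Dex replicate 1. The mean difference was 2.99 ± 0.31 with a limma adjusted p of 3.61e-04, made of 4.73 ± 0.41 in LNCaPabl-Abi and 1.25 ± 0.46 in LNCaPabl-Enza.

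TMPRSS2 encodes a membrane serine protease and is an androgen target of the prostate. It read 11.25, 11.03 and 11.41 in Abi_Ctrl and 13.42, 13.23 and 13.60 in Abi_Dex. Enza_Ctrl gave 12.13 and 11.53, and Enza_Dex gave 12.56, 12.64 and 12.79. All dexamethasone arrays exceeded all DMSO arrays of their line, and the Enza_Dex arrays spread little. TMPRSS2 rose by 1.51 ± 0.15 in the mean, with a limma adjusted p of 3.27e-04.

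PGC encodes pepsinogen C, a secreted aspartic protease precursor found in stomach and prostate. Abi_Ctrl was at 4.36, 4.40 and 4.40 and Abi_Dex at 9.66, 9.40 and 7.79. Enza_Ctrl was at 4.99 and 4.91 and Enza_Dex at 5.44, 5.92 and 7.60. The DMSO arrays were tight and the dexamethasone arrays spread widely in both lines, with Enza_Dex replicate 3 close to Abi_Dex replicate 3. The mean difference of PGC was 2.97 ± 0.36 (limma adjusted p of 0.00171).

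RHOU, an atypical small GTPase, rose by 1.39 ± 0.23 and HOMER2, a scaffold protein of the Homer family, by 0.90 ± 0.15, both with a limma adjusted p of 0.0228. HOMER2 did not overlap between groups in either line, from 10.02 and 9.86 in Enza_Ctrl to 10.37, 10.55 and 10.89 in Enza_Dex. RHOU overlapped in LNCaPabl-Enza, where Enza_Ctrl read 8.21 and 7.77 and Enza_Dex 8.18, 8.76 and 9.70. Of the 30 measured genes of the androgen-induced list, these 5 (TMPRSS2, KLK4, PGC, HOMER2 and RHOU) were called higher and 0 lower. In all 17 were positive in both lines and 3 negative in both, with a median of 0.24, where 0.147% of all genes were called higher, 28.1% were positive in both and 26.8% negative in both. This list too was chosen with earlier results of these data known, so its counts are a description and not a separate test. The neighbouring kallikreins did not pass, with mean differences of 1.45 ± 0.28 for KLK2 (limma adjusted p of 0.0676) and 1.12 ± 0.32 for KLK3, which encodes prostate-specific antigen (0.611). KLK3 read 7.03 and 6.63 in Enza_Ctrl and 6.82, 7.06 and 8.06 in Enza_Dex, so those groups overlapped. In the 14 genes of the androgen-repressed list 0 were called, 2 were positive and 7 negative in both lines, and the median was -0.16.

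**Figure D2:**
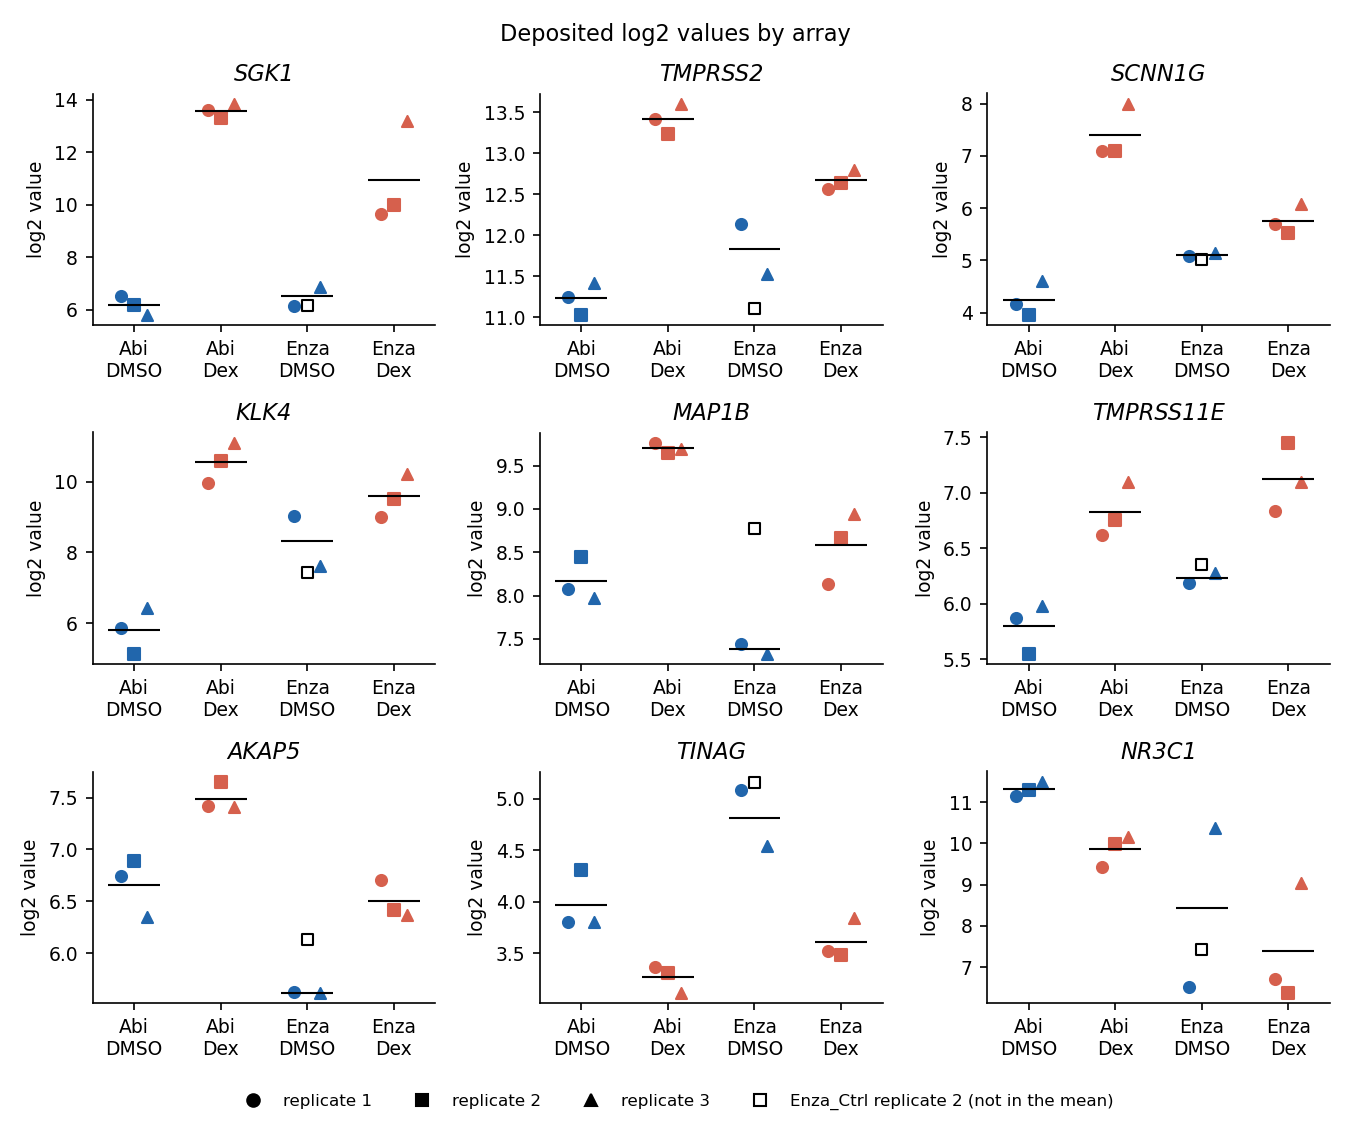
Deposited log2 values of 9 genes on each of the 12 arrays, grouped by line and treatment on the x axis; marker shape gives the replicate number, bars are group means, and the open square is Enza_Ctrl replicate 2, which is not in the mean. SGK1, TMPRSS2 and SCNN1G separate in both lines, KLK4 overlaps in LNCaPabl-Enza, TINAG is lower with dexamethasone in both, and NR3C1 in LNCaPabl-Enza is highest on both replicate 3 arrays.

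Other raised genes encode receptors, signal relays and their brakes. IL6R encodes the binding subunit of the interleukin 6 receptor and IGF1R the insulin-like growth factor 1 receptor. IL6R rose by 1.16 ± 0.18 (limma adjusted p of 0.015), from 8.85 and 8.23 in Enza_Ctrl to 8.86, 9.39 and 9.47 in Enza_Dex, where replicate 1 barely cleared the DMSO arrays. IGF1R rose by 1.07 ± 0.19 (0.0345), and its Enza_Dex values of 10.17, 9.47 and 10.72 overlapped the Enza_Ctrl values of 9.69 and 9.65. HTR3A, a subunit of the serotonin-gated ion channel, rose by 1.94 ± 0.23 (0.00139), with 4.64 and 4.26 in Enza_Ctrl against 4.80, 5.27 and 6.34 in Enza_Dex.

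RGS2, which shuts off Gq-coupled receptor signalling, was at 5.70, 5.30 and 5.85 in Abi_Ctrl and 7.44, 6.96 and 8.85 in Abi_Dex. It was at 7.92 and 7.55 in Enza_Ctrl and 8.32, 9.10 and 9.81 in Enza_Dex. Its DMSO values in LNCaPabl-Enza exceeded Abi_Dex replicates 1 and 2, and its groups separated in each line. RGS2 rose by 1.74 ± 0.31 in the mean, with a limma adjusted p of 0.035. DUSP4, a phosphatase that inactivates MAP kinases, rose by 1.10 ± 0.19 with no overlap in either line. SPSB1, an adaptor of a ubiquitin ligase complex, rose by 2.42 ± 0.32, and ETS2, a transcription factor downstream of Ras and MAP kinase signalling, by 1.28 ± 0.19. The ETS2 mean came from 2.10 ± 0.26 in LNCaPabl-Abi and 0.46 ± 0.29 in LNCaPabl-Enza. The limma adjusted p-values were 0.0345 for DUSP4, 0.00351 for SPSB1 and 0.015 for ETS2.

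AKAP5 anchors protein kinase A near its membrane substrates. It read 6.74, 6.89 and 6.35 in Abi_Ctrl and 7.42, 7.65 and 7.41 in Abi_Dex. LNCaPabl-Enza gave 5.63 and 5.62 with DMSO and 6.71, 6.42 and 6.37 with dexamethasone. The groups separated in both lines, and Enza_Dex replicate 3 was the lowest of its group. AKAP5 rose by 0.85 ± 0.14 in the mean (limma adjusted p of 0.0228). It was called in 4 of 11 omissions of a single array, with a largest limma adjusted p of 0.197. Among the raised genes this number ran from 1 of 11, for IGF1R and PGLYRP2, to all 11.

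Of 4 raised genes with roles in lipids or membranes, NPC1, which exports cholesterol from lysosomes, rose by 1.10 ± 0.15 (limma adjusted p of 0.00563). Its values were 10.66 and 10.08 in Enza_Ctrl and a narrow 10.96, 11.06 and 10.92 in Enza_Dex. CHKA, the kinase that starts phosphatidylcholine synthesis, rose by 0.91 ± 0.16 (0.0326), and the hydrolase gene ABHD2 by 0.90 ± 0.15 (0.0279). CHKA overlapped in LNCaPabl-Enza, with 11.14 and 11.48 in Enza_Ctrl and 11.42, 11.95 and 12.1 in Enza_Dex. FAXDC2, a member of the fatty acid hydroxylase superfamily, rose by 2.56 ± 0.43 (0.0255). FAXDC2 varied widely within groups, from 5.75 to 7.77 in Abi_Ctrl and from 6.80 to 9.03 in Enza_Dex.

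A further 4 raised genes encode proteins of microtubules, actin or muscle filaments. MAP1B encodes a microtubule-associated protein best known from neurons. It read 8.08, 8.45 and 7.97 in Abi_Ctrl and 9.76, 9.65 and 9.69 in Abi_Dex. It read 7.44 and 7.33 in Enza_Ctrl and 8.13, 8.66 and 8.94 in Enza_Dex. Both lines separated, by 1.54 ± 0.21 and 1.19 ± 0.24, with a mean of 1.37 ± 0.16 and a limma adjusted p of 0.00139. LCP1, an actin-bundling protein, rose by 1.06 ± 0.18 (0.0326) without overlap in either line. TUBA3D, an alpha-tubulin gene with near-identical copies whose RNA may reach the same probes, rose by 1.73 ± 0.27 (0.0195), and its LNCaPabl-Enza groups overlapped. MYBPC1, a myosin-binding protein of slow muscle, rose by 1.89 ± 0.33 (0.0326), from 3.05 and 3.13 in Enza_Ctrl to 3.73, 3.40 and 5.37 in Enza_Dex.

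The remaining raised genes were TMPRSS11E, OTULINL and PGLYRP2. TMPRSS11E, a membrane serine protease like TMPRSS2, read 5.87, 5.55 and 5.98 in Abi_Ctrl, 6.62, 6.76 and 7.10 in Abi_Dex, 6.19 and 6.28 in Enza_Ctrl and 6.84, 7.45 and 7.10 in Enza_Dex. Its groups separated in both lines, and it rose by 0.96 ± 0.15 in the mean (limma adjusted p of 0.0216). OTULINL rose by 0.96 ± 0.17 (0.0326) with overlap in LNCaPabl-Enza, and PGLYRP2, a peptidoglycan amidase, by 1.29 ± 0.23 (0.0369).

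TINAG, a basement membrane glycoprotein first known from kidney tubules, was the only gene called lower in the mean. It was at 3.80, 4.31 and 3.80 in Abi_Ctrl and 3.37, 3.31 and 3.12 in Abi_Dex. It was at 5.08 and 4.54 in Enza_Ctrl and 3.52, 3.48 and 3.84 in Enza_Dex. Every dexamethasone array lay below every DMSO array of its line, and the gene was dim, at percentile 21.4 of gene levels. The mean difference was -0.95 ± 0.15 (limma adjusted p of 0.0228), with -0.70 ± 0.21 in LNCaPabl-Abi and -1.19 ± 0.23 in LNCaPabl-Enza. The call was lost when the dimmest 25% of genes were left out, since TINAG was among them, and it held in 5 of 11 single-array omissions. FRZB, a secreted Wnt antagonist, and IL1B, the cytokine interleukin 1 beta, were also lower without overlap in both lines. Their mean differences were -0.71 ± 0.15 and -0.80 ± 0.17, each with a limma adjusted p of 0.12. In all 81 genes (0.458%) were lower in both lines without overlap.

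The difference between the responses was tested for every gene, Enza minus Abi, and 0 genes were called by limma after Benjamini-Hochberg adjustment, with 566 at an unadjusted p under 0.05 (3.2%). Among the 26 raised genes 19 had such an unadjusted p. The LNCaPabl-Enza difference was smaller than the LNCaPabl-Abi difference in 25 of the 26, all but AKAP5, and it was smaller in size in 56.9% of all genes. The LNCaPabl-Abi differences of the 26 had a median of 1.93 and the LNCaPabl-Enza differences one of 0.81, and in the median gene the latter was 39.1% of the former. Because a large difference in 1 line helps a gene pass the test of the mean, these counts are a description. SCNN1G had the smallest p of the 26, with a difference of -2.50 (95% interval -3.31 to -1.69, adjusted p of 0.168). SGK1 differed by -2.96 (-4.97 to -0.94), KLK4 by -3.47 (-4.79 to -2.16), PGC by -3.19 (-4.74 to -1.65) and TMPRSS2 by -1.35 (-1.99 to -0.72).

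For the other 7 raised genes and TINAG the intervals held 0. The difference of AKAP5 was 0.04 (95% interval -0.56 to 0.64), that of TMPRSS11E -0.13 (-0.78 to 0.53) and that of MAP1B -0.34 (-1.02 to 0.34). LCP1 and RGS2 gave -0.53 (-1.32 to 0.26) and -0.79 (-2.11 to 0.53), HOMER2 and DUSP4 gave -0.47 (-1.09 to 0.15) and -0.65 (-1.48 to 0.18), and TINAG gave -0.50 (-1.16 to 0.16). These widths leave room for responses that differ by 0.5 or more, so equal responses are not shown.

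**Figure D3:**
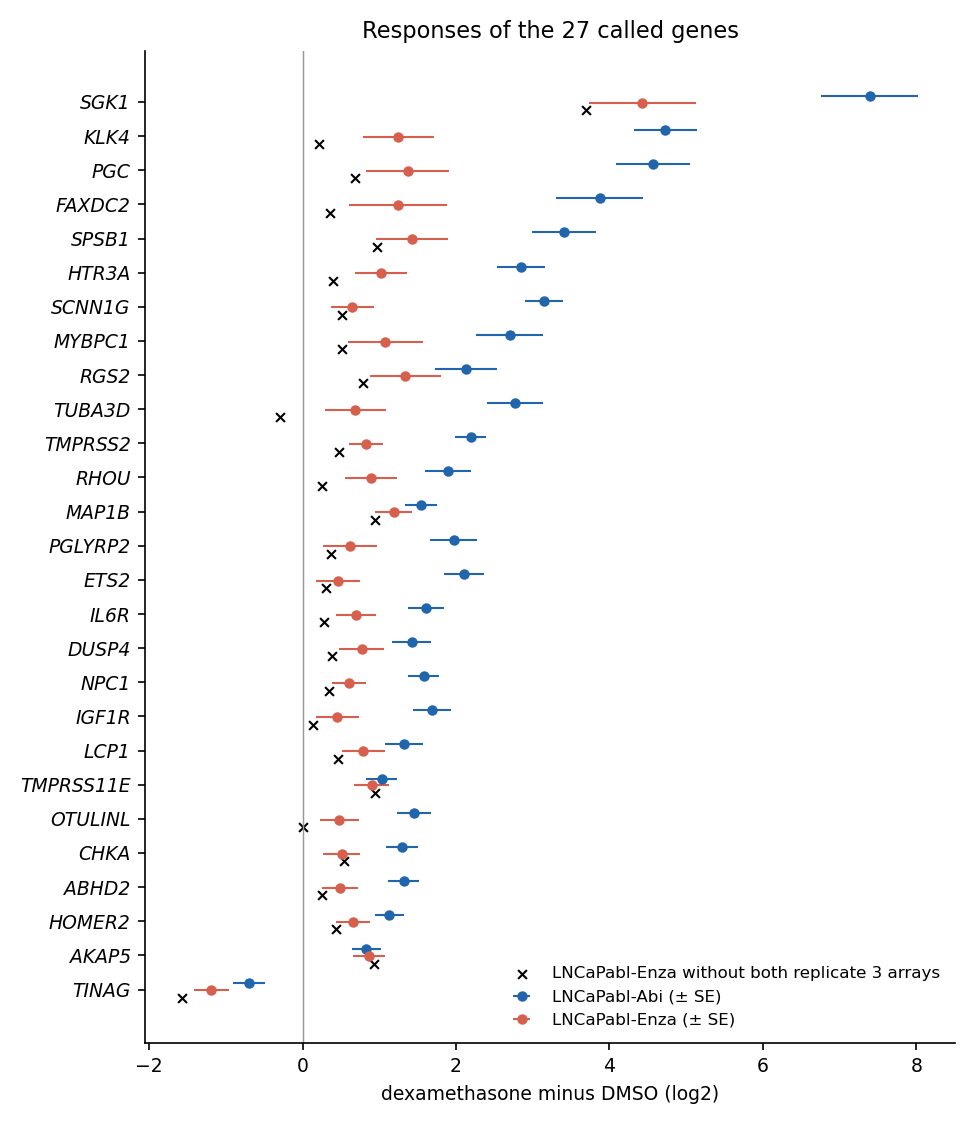
Dexamethasone minus DMSO in log2 units for the 27 called genes, ordered by their mean; blue is LNCaPabl-Abi and red LNCaPabl-Enza with SE bars, and crosses give LNCaPabl-Enza without both replicate 3 arrays. LNCaPabl-Enza is smaller in 25 of the 26 raised genes, and most crosses lie closer to 0 than the red points, with TUBA3D at -0.29.

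Enza_Dex replicate 3 contributed more than the other Enza_Dex arrays. It was the highest of the 3 in 23 of the 26 raised genes, against 36.3% of all genes. The 26 were selected on a mean that includes this array, so the count and the medians below describe them. Measured from the Enza_Ctrl mean, the median of the 26 was 0.57 on Enza_Dex replicate 1, 0.75 on replicate 2 and 1.07 on replicate 3. On the Abi_Dex arrays the medians from the Abi_Ctrl mean were 1.75, 1.74 and 1.75. Single genes still spread among the Abi_Dex arrays, where replicate 3 was the lowest for PGC and SPSB1 and the highest for RGS2.

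**Figure D4:**
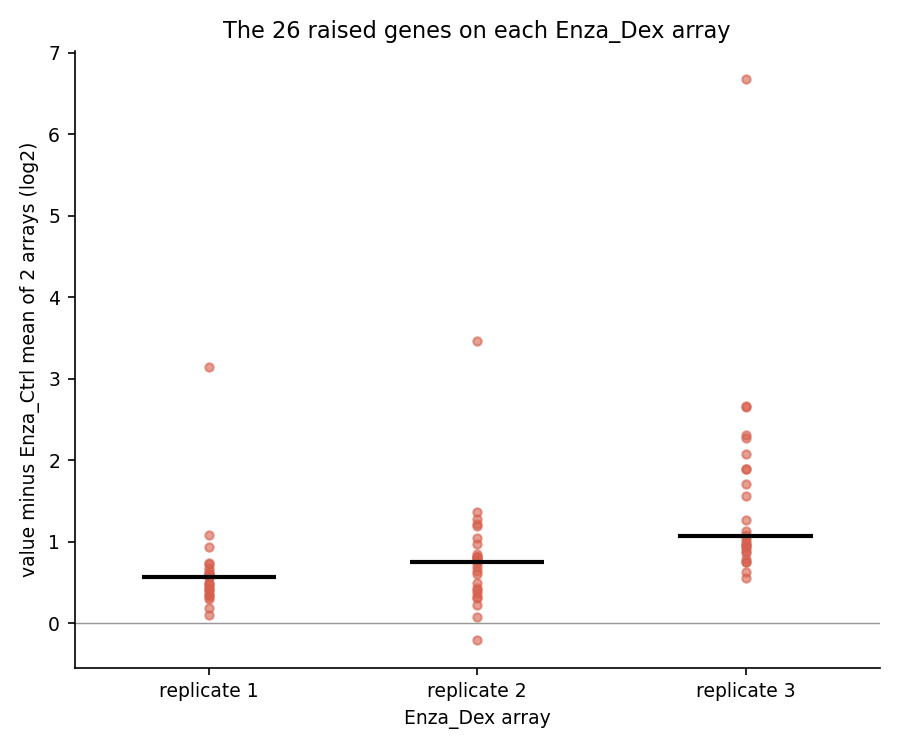
Each point is 1 of the 26 raised genes on 1 Enza_Dex array, as the log2 value minus the Enza_Ctrl mean of 2 arrays; bars are medians. The medians are 0.57, 0.75 and 1.07, and SGK1 is the highest point on each array, at 3.15, 3.47 and 6.68.

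The level of the receptor transcript itself moved with those arrays. NR3C1 read 11.14, 11.30 and 11.49 in Abi_Ctrl and 9.44, 9.99 and 10.15 in Abi_Dex. In LNCaPabl-Enza it read 6.51 and 10.37 in Enza_Ctrl and 6.72, 6.38 and 9.03 in Enza_Dex. Replicate 3 of both LNCaPabl-Enza groups stood well above the rest of that line and near the LNCaPabl-Abi levels. The mean difference of NR3C1 was -1.26 ± 0.56 with a limma adjusted p of 0.874, without overlap in LNCaPabl-Abi and with overlap in LNCaPabl-Enza. The part of the NR3C1 level in the larger replicate 3 differences was not tested.

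Without both replicate 3 arrays of LNCaPabl-Enza, an alternative chosen after their values were seen, 25 of the 26 genes were positive in that line. The median of the 26 there was 0.42, against -0.01 for all genes. The 26 were selected on a mean that includes the remaining arrays, so the kept signs describe them and are not a separate test. Of the 26, 7 were still called in the mean (SGK1, HTR3A, KLK4, PGC, SCNN1G, TMPRSS2 and MAP1B), with 1 Enza_Ctrl and 2 Enza_Dex arrays left and the lone array assumed to vary like the other groups. SGK1 was then 3.69 ± 0.34 in LNCaPabl-Enza and passed in both lines, with an adjusted p of 0.00162 for the larger p. It also passed in both lines when only Enza_Dex replicate 3 was left out, at 3.31 ± 0.30 and an adjusted p of 6.87e-04. KLK4 was 0.22 in LNCaPabl-Enza without the replicate 3 arrays, while AKAP5 at 0.93 and TMPRSS11E at 0.95 were no smaller than with them.

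With all 12 arrays, 5 genes were called higher in the mean (0.0283%) and 0 lower, with 284 higher (1.61%) and 189 lower (1.07%) among 473 genes (2.67%) at an unadjusted p under 0.05. The 5 were SGK1 at 5.97 ± 0.51, TMPRSS2 at 1.63 ± 0.19, SCNN1G at 1.92 ± 0.21, KLK4 at 3.14 ± 0.36 and PGC at 2.93 ± 0.39. Their limma adjusted p-values were 0.00233, 0.0122, 0.0109, 0.0122 and 0.0393, and all 5 were among the 26. All 26 kept a positive mean, and 25 stayed positive in LNCaPabl-Enza, where OTULINL turned to -0.12. Groups of LNCaPabl-Enza did not overlap for 15 of the 26, against 3.96% of all genes. The 26 were selected on all but Enza_Ctrl replicate 2 of these arrays. The kept signs and the overlap count therefore describe them and are not a separate test. The share of genes with the same sign in both lines was 50.2%, 0 genes passed in both lines (24 at an unadjusted p under 0.05, 0.136%), and 0 passed for the difference between the responses (266 unadjusted, 1.5%).

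Adding this array moved single genes in both directions. For NPC1 it read 6.16 where the other 11 arrays lay between 9.45 and 11.43, and the mean went from 1.10 to 1.80. For ETS2 it read 4.22 where the others lay between 8.21 and 11.12, and the mean went from 1.28 to 2.09. HOMER2, by contrast, read 11.32, above all Enza_Dex arrays, and its mean went from 0.90 to 0.67. None of these 3 was called with 12 arrays, with a limma adjusted p of 0.791 each. TINAG kept its size, at -1.01, and missed the threshold at 0.251.

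The glucocorticoid-induced list held 32 measured genes of 36, and FKBP5 and PER1 are not analysed here. SGK1 and RGS2 were called higher and 0 were called lower. In all 19 were positive in both lines and 3 negative in both, with a median of 0.25 (0.23 with 12 arrays). For all genes 0.147% were called higher, 28.1% were positive in both lines and 26.8% negative in both. SGK1 is also in the sodium transport list, and both lists were chosen with earlier results known, so these counts are a description. TSC22D3, which encodes the anti-inflammatory protein GILZ, had a mean difference of 0.94 ± 0.34 with a limma adjusted p of 0.827. Its values overlapped in both lines, at 9.74, 9.25 and 7.75 in Abi_Ctrl, 11.14, 10.62 and 9.48 in Abi_Dex, 9.62 and 8.97 in Enza_Ctrl and 9.64, 9.41 and 10.00 in Enza_Dex. KLF9, a transcription factor of this list, had 0.62 (0.205), and ERRFI1, a feedback inhibitor of the EGF receptor, had 0.76 (0.524). The 3 negative in both lines were ANGPTL4 at -0.31, IGFBP1 at -0.28 and ADORA1 at -0.23.

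Of 24 genes of MAP kinase feedback and immediate early response, DUSP4 was called higher and 11 were positive in both lines, 4 negative, with a median of 0.06. Of 20 genes of insulin, FOXO and energy signalling, IGF1R was called, 9 were positive in both lines and 4 negative, with a median of 0.07. The shares over all genes were 0.147% called higher, 28.1% positive in both lines and 26.8% negative in both. No member of the 23-gene inflammatory list was called, and 10 were positive and 4 negative in both lines. The unfolded protein response list had 0 of 20 called, with 14 positive in both lines and 0 negative in both (28.1% and 26.8% of all genes), and a median of 0.17 (0.27 with 12 arrays). Its LNCaPabl-Enza median was 0.08, and -0.01 without both replicate 3 arrays. Without those arrays this median went from 0.18 to 0.07 for the glucocorticoid-induced list and from 0.16 to 0.1 for the androgen-induced list. It went from 0.09 to 0.02 for fatty acid synthesis, 0.17 to 0.04 for luminal markers and -0.14 to -0.08 for cell division. Sodium transport hardly moved, from 0.13 to 0.12, and metallothioneins went up from 0.25 to 0.32. Fatty acid synthesis genes had 0 of 15 called, 11 positive in both and 1 negative, with a median of 0.16 (0.27 with 12 arrays). With 12 arrays the insulin list had a median of 0.02 and the inflammatory list, at 0.08 with 11, also 0.02.

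Cell division genes leaned the other way in the 11 arrays. None of the 30 was called, 28 were negative in both lines and 0 positive in both, and 15 had an unadjusted p under 0.05 (2.62% of all genes were lower at that p). Over all genes 26.8% were negative in both lines and 28.1% positive in both. The medians of the cell division list were -0.50 in LNCaPabl-Abi and -0.14 in LNCaPabl-Enza. Averaged over the list, Abi_Ctrl arrays lay between 12 and 12.13 and Abi_Dex arrays between 11.47 and 11.64. The Enza_Ctrl arrays, at 12.16 to 12.53, overlapped the Enza_Dex arrays, at 12.02 to 12.43. The proliferation marker MKI67 had a mean difference of -0.31 ± 0.16 (limma adjusted p of 0.88). DNA replication genes followed, with 0 of 33 called, 23 negative in both lines and 1 positive, and a median of -0.27. With all 12 arrays the direction in LNCaPabl-Enza was turned, and the medians there were 0.30 for cell division and 0.51 for DNA replication. The mean medians were then -0.05 and 0.06, so the shared direction of both lists depends on leaving out Enza_Ctrl replicate 2.

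**Figure D5:**
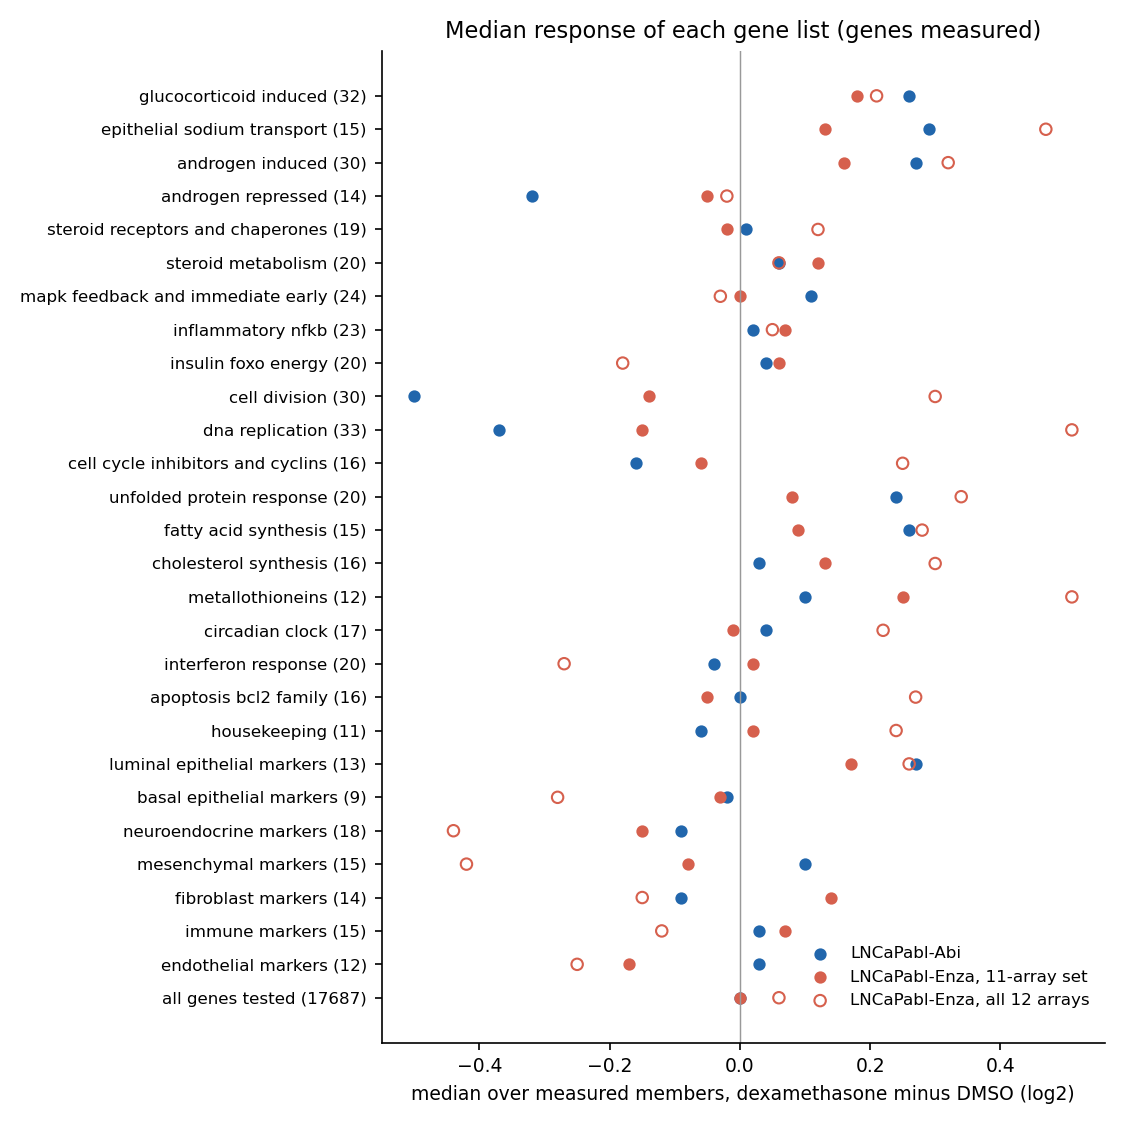
Median dexamethasone minus DMSO difference in log2 units over the measured members of each gene list, with the number measured in parentheses; blue is LNCaPabl-Abi, filled red LNCaPabl-Enza over the 11-array set and open red LNCaPabl-Enza with all 12 arrays. Cell division and DNA replication are below 0 in both lines with 11 arrays and above 0 in LNCaPabl-Enza with 12, and the glucocorticoid-induced, sodium transport and androgen-induced lists are above 0 in each.

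Marker lists of other cell types held no called gene. Basal, neuroendocrine, mesenchymal, fibroblast, immune and endothelial markers had medians of the mean difference of -0.17, -0.09, -0.07, -0.04, 0.05 and -0.12. With all 12 arrays these were -0.21, -0.26, -0.23, -0.11, -0.11 and -0.19, so the immune median changed sign. Of the 13 luminal markers 0 were called, 7 were higher at an unadjusted p under 0.05, 8 were positive in both lines and 2 negative, and the median was 0.29. Of all genes 2.97% were higher at that p, 28.1% were positive in both lines and 26.8% negative in both. KRT19, a simple epithelial keratin with the largest mean of this list after KLK3, had 0.90 (limma adjusted p of 0.684). It had 0.84 in LNCaPabl-Abi and 0.96 in LNCaPabl-Enza. The 2 negative in both lines were ESRP1 at -0.14 and OCLN at -0.13, and FOXA1 was at 0.00.

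Promoter sequences of the called genes were read for the glucocorticoid response element, since its letters next to the gene start are 1 thing the raised genes could share. RefSeq promoter windows (GRCh38.p14, 250 bases before to 50 after the start) matched 21 of the 27 called genes with 28 windows. The full element, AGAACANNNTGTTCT, occurred in 0 of the 28 windows and in 0 of all 20090 windows of tested genes. A single arm of it, AGAACA or its reverse complement TGTTCT, each strand counted, occurred in 4 of 28 windows (14.3%) against 11.5% of all windows. Windows that matched the element at 9 or more of its 12 fixed letters numbered 2 of 28, those of LCP1 and PGLYRP2, against 8.47% of all. The share of windows with an arm was thus near that of all windows, and such elements often lie further from the start than this window reaches. The arm lay upstream of the start in IL6R (chr1:154405093-154405342, plus strand), MYBPC1 (chr12:101594721-101594970, plus strand) and LCP1 (chr13:46182178-46182427, minus strand). The fourth window was 1 of 3 windows of SGK1, where the arm began at position 5 after the start, and it is not printed. The windows of IL6R, MYBPC1 and LCP1 are printed from 250 bases upstream to the base before the start. They run 5′ to 3′ on the gene's strand, with each arm in capitals.
IL6R: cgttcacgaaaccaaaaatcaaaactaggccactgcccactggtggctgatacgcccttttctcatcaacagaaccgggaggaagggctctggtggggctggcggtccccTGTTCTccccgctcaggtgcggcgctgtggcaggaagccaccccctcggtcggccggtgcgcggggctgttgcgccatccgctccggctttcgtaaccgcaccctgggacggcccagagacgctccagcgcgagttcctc
MYBPC1: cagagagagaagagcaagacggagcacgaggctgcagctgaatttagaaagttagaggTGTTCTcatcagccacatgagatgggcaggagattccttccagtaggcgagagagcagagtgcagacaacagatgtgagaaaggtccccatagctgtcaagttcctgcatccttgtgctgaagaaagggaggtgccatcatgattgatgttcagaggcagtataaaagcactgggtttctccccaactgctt
LCP1: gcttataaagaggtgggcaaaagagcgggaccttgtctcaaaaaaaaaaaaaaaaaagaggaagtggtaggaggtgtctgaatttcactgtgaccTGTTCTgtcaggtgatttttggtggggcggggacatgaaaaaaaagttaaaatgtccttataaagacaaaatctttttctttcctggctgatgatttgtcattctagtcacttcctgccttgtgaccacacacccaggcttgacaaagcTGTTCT
The arm begins at position -140 in IL6R, at -192 in MYBPC1 and at -155 and -6 in LCP1, counted from the start. These 3 genes rose by 1.16, 1.89 and 1.06 in the mean of both lines.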

How the data were processed

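For each array the authors deposited a log2 value per transcript cluster. RMA, Affymetrix Expression Console and limma, with no versions, are the tools in the submitters' processing notes, with further options not given in the sources used here. Values ran from 1.66 to 18.6, wide for RMA alone, so folds may exceed the change in RNA. Of 24351 rows, 17709 had 1 symbol, all matched to RefSeq by Entrez identifier, and 6642 had none. The brightest row was kept for 20 symbols with several, leaving 17687 genes.

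Groups came from sample titles. Differences were tested with limma 3.58.1 in R 4.3.3 (lmFit, contrasts.fit, eBayes defaults, 4 group means, no filter), with Benjamini-Hochberg adjustment over all genes and a threshold of 0.05. The difference in each line, the larger of both p-values and the difference between responses came from the same fit, so they share arrays. The script was tested on simulated data. Arrays hold no read depth, so their number limits the precision.

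The lists and tests were chosen with earlier results of these data known. Named genes were up to 15 called genes in each direction with 1 sign in both lines (5 with 12 arrays), up to 4 called members of each list or its smallest p, fixed controls and genes separated in both lines. NPC1, IL6R, ABHD2, OTULINL, LCP1, CHKA and genes near the threshold were named after their values were seen. Other uncalled list members, among them SCNN1B, NEDD4L, KLF9, ERRFI1 and KRT19, were also named outside the naming rules. Alternatives covered arrays, replicate block, filter, normalization and prior.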

Additional observations from a re-analysis of the deposited data

How the results depend on the processing

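Across 20 settings, the mean difference of the 27 called genes kept its direction in all 539 values, of which 202 no longer passed the threshold. The 27 were selected on nearly the same arrays, so the kept direction is a description. The LNCaPabl-Enza difference turned for OTULINL, at -0.12 with all 12 arrays, and for TUBA3D, at -0.29 without both replicate 3 arrays. Of 1056 values of the mean difference for 53 genes, 6 turned, all with Enza_Ctrl replicate 2 included: DPP4 at -0.13, IFI44 at -0.20 and KRT14 at -0.04, with and without the replicate block. Raised genes numbered 26 in the main calculation, 5 with all 12 arrays, 4 with the replicate block and all 12 arrays, 17 in an additive fit of line and treatment, 7 without both Enza replicate 3 arrays, and 8 to 24 when a single array was left out. Lowered genes numbered 1, against 0 with all 12 arrays, 0 with the replicate block and 12 arrays, 0 with dim genes left out, 0 without both Enza replicate 3 arrays, 5 with array weights (TINAG, FRZB, IL1B, FCRL1 and H2BC17, the last 2 named after their values were seen), and 0 to 2 over single omissions. Genes called in both lines numbered 0, against 1 (SGK1) without both Enza replicate 3 arrays, and 0 to 1 over single omissions. The cause of these changes was not tested. With the replicate block 34 genes were called higher and 1 lower. Deviations of arrays with the same number correlated at 0.14, 0.08 and 0.30 in LNCaPabl-Abi and at 0.06 and 0.22 in LNCaPabl-Enza, so the numbers are not taken to pair the samples. Called higher under every single-array omission were 8 genes: SGK1, TMPRSS2, SCNN1G, KLK4, MAP1B, HTR3A, PGC and SPSB1. Few arrays limit all counts, and with 2 Enza_Ctrl arrays a gene missing the threshold is not shown to be without a shared response.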

Other observations

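Further lists had no called member. Metallothioneins, which bind zinc and are inducible by glucocorticoids, were positive in both lines for 7 of 12 genes and negative for 2, with a median of 0.19. For all genes these shares were 28.1% and 26.8%. MT1X read 12.04 and 12.66 in Enza_Ctrl and 12.33, 13.22 and 13.48 in Enza_Dex, with a mean difference of 0.59 ± 0.21 (limma adjusted p of 0.804). Cholesterol synthesis genes had a median of 0.13 over 16 genes, steroid metabolism 0.10 over 20 and circadian clock genes 0.05 over 17. Steroid receptors with their chaperones had -0.03 over 19, cell cycle inhibitors and cyclins -0.08 over 16, interferon response genes -0.02 over 20, the BCL2 family 0.00 over 16 and housekeeping genes 0.00 over 11. With all 12 arrays the medians were 0.29 for metallothioneins, 0.15 for cholesterol synthesis, 0.06 for steroid metabolism, 0.18 for the clock, 0.00 for receptors and chaperones, 0.04 for cell cycle inhibitors and cyclins, -0.16 for interferon response, 0.06 for the BCL2 family and 0.09 for housekeeping genes. HSD11B2, the enzyme that inactivates cortisol, had a mean difference of 0.55 ± 0.24 (0.874), and CRY2 of the clock had 0.35 ± 0.16 (0.874).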
